A study of Mus musculus with 4 samples.

Results

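Cytosolic heat shock response genes were followed in the lungs of 4 A/J mice given bleomycin, each hybridised on its own 2-colour array together with 1 shared pool from control A/J lungs. Bleomycin is a drug that damages DNA and injures the lung, and A/J is an inbred mouse strain. The sources used here do not give the dose, route, time after treatment, age or sex of the mice or the number of control mice in the pool. Both sides were hybridised as amplified RNA, per the labels. The 6 genes are Hspa1a, Hsph1, Hsp90aa1, Hspa8, Cacybp and Dnajb6, out of 13410 genes named on the array, and they were picked by symbol because their ratios lay far above 0. They are covered by 22 probes, 17 of them for Hspa1a and 1 for each of the other 5 genes. All 6 had a value on at least 3 arrays, 4 of them on 4 arrays and 2 on 3. Because the ratios chose the genes, the ratios of the 6 are given below as a description without a test.

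Cells meet misfolded protein in the cytosol by releasing the transcription factor Hsf1 from chaperones, and Hsf1 trimers then bind heat shock elements, arrays of inverted nGAAn units, in front of chaperone genes. Hsp70 proteins bind unfolded stretches of clients with the help of J-domain partners and exchange factors, and pass some clients to Hsp90. In the lung this response is known from heat, oxidants and inflammation, and inducible Hsp70 is its usual marker.

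Each value was the log ratio between a treated mouse and the control pool, centred on the median of its array. The numerator of the ratio is not named in the labels or the table. Titles and channels name the treated mouse ahead of the pool, which would make a positive value mean more RNA in the treated mouse. That basis is weak, so values are given by their side of 0, and with the pool as numerator all signs would turn. A base of 2 was inferred for the logarithm from the range of the values, so fold sizes hold only under that reading. The 4 arrays held values for 9427 to 12136 of 17280 spots. Across spots, mice 1 and 2 correlated at r = 0.728 and mice 3 and 4 at r = 0.858, while the pairs across these lay between r = 0.453 and r = 0.574, and no pair was negative. Spots share the array and the pool, so these correlations are a description only. Since lung tissue was taken whole, more cells of a type and more RNA per cell cannot be told apart in any of the ratios, and a table of ratios holds no levels from which the tissue could be checked. The number of arrays limits the precision.

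The promoter sequences show where the letters of a heat shock element lie near these genes. RefSeq windows of 250 bases before to 50 bases after the annotated start (build GRCm38.p6) were found for 4 of the 6 genes, Hspa1a, Hsph1, Cacybp and Dnajb6. They were searched on both strands for 3 alternating units: GAA, any 2 bases, TTC, any 2 bases and GAA, or the reverse complement of this, TTC, any 2 bases, GAA, any 2 bases and TTC. They were also searched for 2 adjacent units, GAA and TTC in either order with any 2 bases between them, which every 3-unit match contains. A 3-unit match was present in 2 of the 4 genes, Hsph1 and Dnajb6, against 0.662% of the 27025 genes with a window, and a 2-unit match in 3 of the 4, against 17.0%. The windows below are those of the 3 genes with a match, shown 5′ to 3′ on the strand of the gene, with the match in capitals (2 units in Hspa1a, 3 units in Hsph1 and Dnajb6).
Hspa1a, chr17:34972107-34972406, minus strand: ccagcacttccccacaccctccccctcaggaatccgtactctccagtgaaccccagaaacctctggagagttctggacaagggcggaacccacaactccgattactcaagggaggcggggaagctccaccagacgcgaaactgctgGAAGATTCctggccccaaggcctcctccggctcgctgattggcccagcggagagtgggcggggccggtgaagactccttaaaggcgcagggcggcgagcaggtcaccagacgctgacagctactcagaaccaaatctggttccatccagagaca
Hsph1, chr5:149636287-149636586, minus strand: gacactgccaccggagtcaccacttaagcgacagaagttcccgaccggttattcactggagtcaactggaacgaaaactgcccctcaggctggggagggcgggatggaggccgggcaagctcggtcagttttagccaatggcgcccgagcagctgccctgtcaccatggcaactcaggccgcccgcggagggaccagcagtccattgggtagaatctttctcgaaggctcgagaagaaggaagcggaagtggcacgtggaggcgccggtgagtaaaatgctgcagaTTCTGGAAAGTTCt
Dnajb6, chr5:29735648-29735947, plus strand: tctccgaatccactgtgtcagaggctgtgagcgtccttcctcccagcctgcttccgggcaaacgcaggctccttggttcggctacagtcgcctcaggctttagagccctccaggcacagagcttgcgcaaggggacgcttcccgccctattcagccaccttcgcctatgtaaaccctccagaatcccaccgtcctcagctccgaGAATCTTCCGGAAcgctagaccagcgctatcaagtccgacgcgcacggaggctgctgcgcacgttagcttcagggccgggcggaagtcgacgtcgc
The Hspa1a match begins 104 bases before the annotated start, the Dnajb6 match 46 bases before it, and the Hsph1 match lies behind it, from base 37 of the transcript. Hsph1 and Dnajb6 each have another window with another start, which holds the same match. The Cacybp window, chr1:160212843-160213142, held neither form. These matches are a description of letters and were not tested for binding.

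Hspa1a, which encodes the stress-inducible Hsp70, lay at 3.54, 2.62, 2.14 and 2.15 in mice 1 to 4 as the mean log2 ratio of its probes. Without scaling of the arrays, mouse 1 was highest, mice 3 and 4 were almost equal, and all 4 were far above 0. The mean was 2.61 ± 0.66 (SD, n = 4), a 6.12-fold difference. Hspa1a was the gene with the highest mean of the 8384 genes with at least 3 values. On single arrays it ranked 1 of 9994 genes in mouse 1 and 1 of 9500 in mouse 2, and it stood at 10 of 7941 for mouse 3 and 2 of 8590 for mouse 4.

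**Figure D1:**
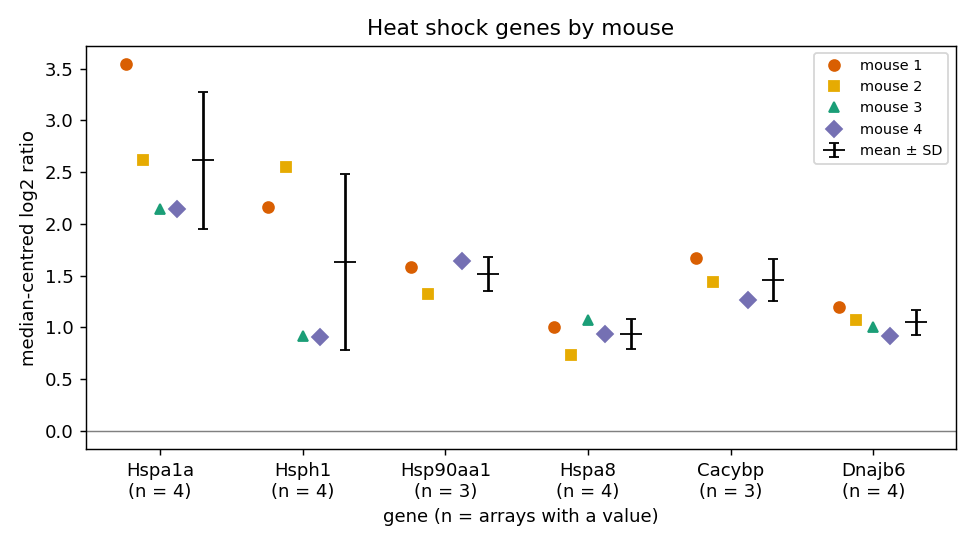
Median-centred log2 ratio of 6 heat shock genes in each of 4 treated mice against the control pool (symbols, one per mouse), with the mean and SD over the mice with a value (black bar). The 22 values lie at 0.73 or above, Hspa1a is highest in mouse 1 at 3.54, and Hsph1 splits into 2.16 and 2.55 (mice 1 and 2) and 0.92 and 0.90 (mice 3 and 4).

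The single probes of Hspa1a were not alike. Of the 17, 12 had a value on all 4 arrays, 1 on 3 arrays, 1 on 2 arrays and 2 on 1 array, and 1 had none. Over the 12 complete probes, the means were 3.65, 3.05, 2.40 and 2.34 in mice 1 to 4, a mean over mice of 2.86 ± 0.61 (SD, n = 4) or 7.26-fold. Mouse 1 was the highest of the 4 mice on 12 of these 12 probes and mouse 2 the next on 12 of 12. The order of these mice thus did not rest on a few probes. Probes on 1 array share its spread, however. The median absolute deviations of the arrays were 0.171, 0.172, 0.197 and 0.128 in mice 1 to 4. The order is therefore given only for arrays that were not scaled to the same spread. Mouse 3 was above mouse 4 on 8 of 12, and these mice had no settled order. Of the 48 single log2 ratios of these probes, 47 exceeded 1, the lowest being 0.96 and the highest 4.37.

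The highest probe mean was that of the fourteenth Hspa1a probe in the table's order, with log2 ratios of 4.35, 4.12, 3.22 and 2.96 in mice 1 to 4, a mean of 3.66 or 12.7-fold. The lowest among complete probes was that of the eleventh, with 2.47, 2.32, 0.96 and 1.21, a mean of 1.74 or 3.34-fold. Differences between probes held 41.5% of the sum of squares of the 48 values, differences between mice 47.6%, and the remainder 10.9%, with a remaining SD of 0.31 per value. A probe's share of the whole was therefore about as large as a mouse's, and fold sizes of Hspa1a depend on the probe.

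The 3 Hspa1a probes with values on only 1 or 2 arrays gave 4 values, from -0.21 to 0.66, close to 0. They entered the gene average in mouse 2 (0.66 and 0.05), mouse 3 (0.18) and mouse 4 (-0.21) but not in mouse 1. The ninth probe, with 2.29, 2.00 and 0.99 in mice 1 to 3, entered the average of those mice. The gene average was lower than over the complete probes in every mouse, by way of which spots had a value. The mean with 12 probes and the mean with all probes differed by less than the SD between mice. Probe sequences are not part of the files, so why some probes lie near 0 was not tested.

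**Figure D2:**
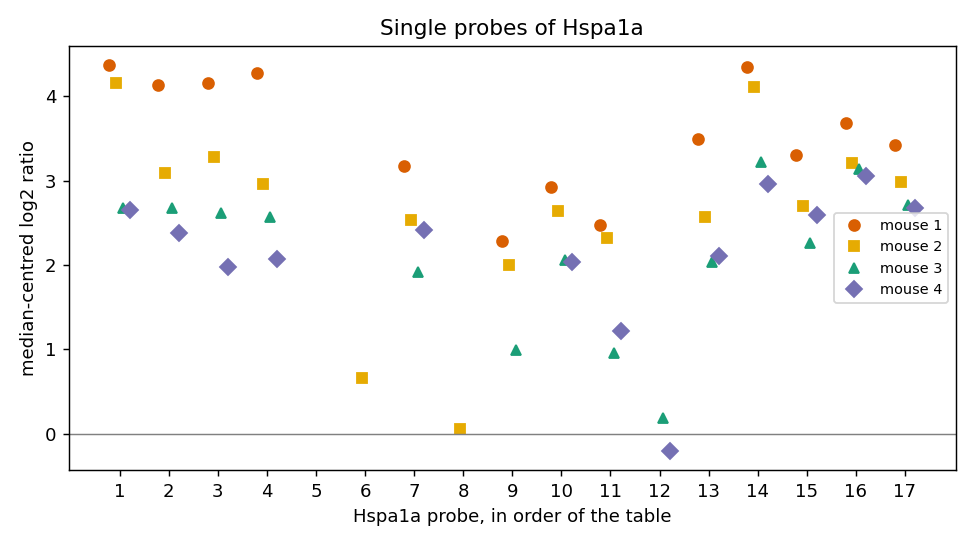
Median-centred log2 ratio of each of the 17 Hspa1a probes in table order (x axis), with a symbol for each of the 4 mice; a missing symbol is a spot without a value. The 12 complete probes have means between 1.74 and 3.66, mouse 1 is the top symbol on all 12, and the 4 values of the 3 sparsest probes lie between -0.21 and 0.66.

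Hspa1b, the neighbouring copy of the inducible Hsp70 gene, had 1 probe and no value on any array. Its promoter window, chr17:34959189-34959488 on the minus strand, was identical to that of Hspa1a at 296 of 300 bases (98.7%) and held the same 2-unit match at the same place. Transcripts of such close copies may hybridise to the same probes, so the ratios of Hspa1a cannot be assigned to Hspa1a alone.

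Hsph1, which encodes Hsp110, an exchange factor that resets Hsp70 and helps it to pull aggregates apart, had log2 ratios of 2.16, 2.55, 0.92 and 0.90 in mice 1 to 4. Mice 1 and 2 lay together high and mice 3 and 4 together lower, with none between 0.92 and 2.16. The mean was 1.63 ± 0.85 (SD, n = 4) or 3.10-fold, with the largest SD of the 6 genes. In mouse 2, Hsph1 came close to the average of all Hspa1a probes (2.55 against 2.62), and in the other mice it lay further below. That average includes 2 probes with a value in mouse 2 only, at 0.66 and 0.05. Over the 12 complete probes, Hspa1a stood at 3.05 in mouse 2. The gene ranked 2 in mice 1 and 2 but 339 of 7941 in mouse 3. The split follows the likeness of the arrays of mice 1 and 2 and of mice 3 and 4 described above, and the part of that likeness in it was not tested.

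Hsp90aa1, the stress-inducible Hsp90 alpha, had log2 ratios of 1.58 in mouse 1, 1.33 in mouse 2 and 1.64 in mouse 4, and no value in mouse 3. The 3 values lay close together, with a mean of 1.52 ± 0.17 (SD, n = 3) or 2.86-fold. This closeness depends on the processing: with arrays scaled to the same median absolute deviation, the mean was 1.66 ± 0.44 (SD, n = 3). Cacybp, which encodes the calcyclin-binding protein, a partner of S100 proteins, of the ubiquitin ligase Siah1 and of Hsp90, had 1.67, 1.44 and 1.26 in mice 1, 2 and 4, and likewise none in mouse 3. Its mean was 1.46 ± 0.20 (SD, n = 3) or 2.74-fold. Both genes lacked the same mouse, so their means leave out 1 of the 2 arrays on which Hsph1 was lower.

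Hspa8, the constitutive Hsc70 that serves folding, clathrin uncoating and autophagy in unstressed cells, had log2 ratios of 1.00, 0.73, 1.07 and 0.93 in mice 1 to 4. Mouse 2 was lowest and mouse 3 highest, with a mean of 0.93 ± 0.15 (SD, n = 4) or 1.91-fold. The difference between the log2 ratios of Hspa1a and Hspa8 was 2.54, 1.89, 1.07 and 1.21 in mice 1 to 4. The inducible Hsp70 thus had the larger ratio on every array, and the distance between the 2 genes was widest in mice 1 and 2. Hsph1 exceeded Hspa8 by 1.16 and 1.82 in mice 1 and 2 and lay at -0.15 and -0.03 relative to it in mice 3 and 4.

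Dnajb6, a J-domain cochaperone that keeps aggregation-prone proteins soluble, had log2 ratios of 1.20, 1.08, 1.00 and 0.92 in mice 1 to 4. Its mean was 1.05 ± 0.12 (SD, n = 4) or 2.07-fold, with the smallest SD of the 6 genes.

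In the order of their means, the genes ran Hspa1a, Hsph1, Hsp90aa1, Cacybp, Dnajb6 and Hspa8. Hspa1a stood 0.98 above Hsph1, more than either SD, although their ranges overlapped. Hsph1, Hsp90aa1 and Cacybp followed at gaps of 0.12 and 0.06, less than the larger SD of each pair. The mean of Hsph1 includes mouse 3, which the others lack, and was 1.87 ± 0.86 (SD, n = 3) without it. In mice 1 and 2, Hsph1 lay above Hsp90aa1 and Cacybp, and in mouse 4 below them. Hsp90aa1 lay below Cacybp in mice 1 and 2 and above it in mouse 4, so these neighbours had no settled order. Cacybp stood 0.41 above Dnajb6 without overlap of the values. Dnajb6 and Hspa8 were 0.11 apart, less than the SD of 0.15. By mean, Hsph1 ranked 6, Hsp90aa1 9, Cacybp 11, Dnajb6 82 and Hspa8 123 of 8384 genes. All 6 lay above 0 on every array with a value, as did 24.3% of the genes tested, and nothing is read from this, since the genes were picked for it. Hspa1a, Hsp90aa1 and Cacybp exceeded 1, a 2-fold difference, on every array with a value; 0.37% of the 8384 genes with 3 or 4 values did so too, and again nothing is read from this.

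**Figure D3:**
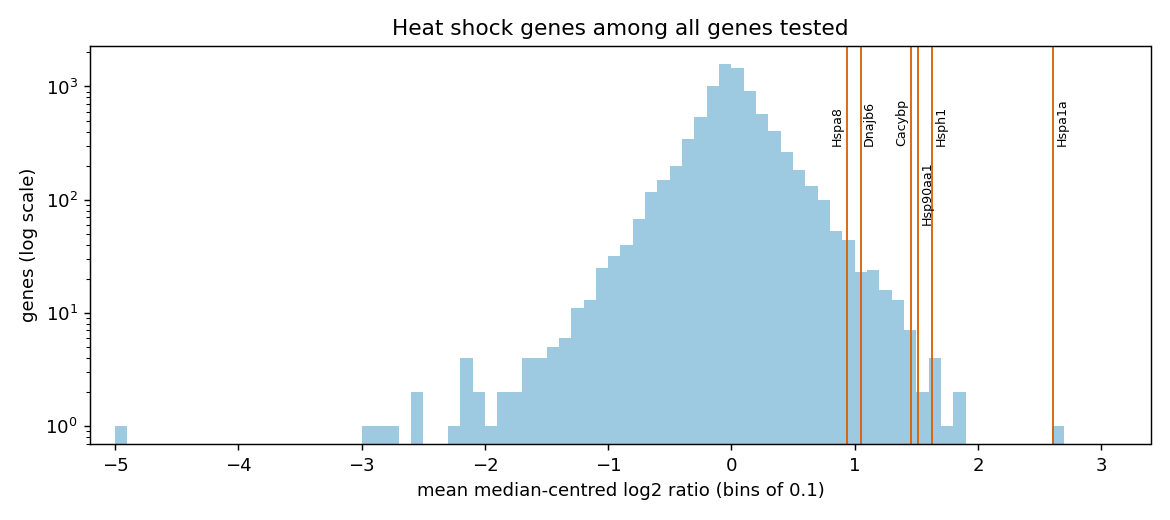
Histogram of the mean median-centred log2 ratio of the 8384 genes with at least 3 values (bins of 0.1; the count axis is logarithmic), with lines at the means of the 6 heat shock genes. The lines run from 0.93 for Hspa8 to 2.61 for Hspa1a, which has the highest mean of all.

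The genes nearest to each of the 6 were found by the root mean square difference of log2 ratios over the arrays with a value. No gene was close to Hspa1a: the nearest of 6056 genes, the lung monooxygenase gene Fmo2, was 1.04 away, followed by Hsph1 at 1.11 and Ormdl2, a regulator of sphingolipid synthesis, at 1.12. Fmo2 had 1.70, 1.74, 1.94 and 1.86 in mice 1 to 4 and so did not have the high value of mouse 1. Nearest to Hsph1 were Selenop, which encodes the selenium carrier selenoprotein P, at 0.41, Krcc1 at 0.62 and the proteoglycan gene Ogn at 0.67. Selenop (1.67, 2.00, 0.82 and 0.56) and Ogn (1.45, 1.65, 0.58 and 0.31) had higher values in mice 1 and 2 than in mice 3 and 4, as Hsph1 did.

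The other 4 genes had closer neighbours. Over 3 arrays, Hsp90aa1 was followed most closely by Ginm1 (0.17), the endothelial gene Tmem100 (0.17) and Hsd3b7 (0.22), and Cacybp by the kinase gene Smg1 of nonsense-mediated decay (0.04), Erbin (0.08) and Krcc1 (0.09). Over 4 arrays, Hspa8 was followed by the ligase gene Topors (0.06) and the lysosomal genes Laptm4a (0.07) and Npc1 (0.08). Dnajb6 was followed by the sphingosine-1-phosphate receptor gene S1pr1 (0.10), Mal2 (0.11) and 2310076G13Rik (0.13). With 3 or 4 arrays, such likeness describes these values and nothing more.

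Further genes of the chaperone system, most of them cytosolic or mitochondrial, were taken from 7 lists with 72 genes. Of these, 62 had a probe and 46 had at least 3 values. The mean log2 ratio of each was tested against 0 with limma, a linear model with moderated variances fitted over all 8384 genes, with Benjamini-Hochberg adjustment and a threshold of 0.05. Of the 46 genes, 10 passed above 0 (21.7%), against 7.69% of all genes tested, and 2 passed below 0 (4.35%), against 4.81%. At an unadjusted p under 0.05, 17 were above and 2 below 0, together 19 of 46. Of all 8384 genes tested, 2664 had such a p on either side of 0. The lists given as 0 below 0 in the next paragraphs also had 0 there at that level. Without Serpinh1, Hspa13 and Dnajb12, 3 genes of the endoplasmic reticulum (a setting chosen after seeing the data), 9 of 43 passed above 0 (20.9%) and 2 below, with a median of 0.12. The median log2 ratio of the 46 was 0.15, against 0.00 over all genes. The lists were put together with earlier results of these data known, so these shares describe the lists and are no independent support. The counts shrank with fewer mice: 4 passed above 0 when mouse 1, 3 or 4 was left out and 7 without mouse 2, and 6 with the pairs of like arrays as a random block; of the 2 below 0, 1 was left without mouse 4 and 0 in each of the other 4 fits. The block ended the calls of Hspa4l, Bag3, Dnajc7, Cryab, Hspb2 and Dnaja3, at limma adjusted p from 0.0581 to 0.113, and without centring Dnajc7 was lost (limma adjusted p = 0.0510). Losses without a mouse are named with each gene below, at limma adjusted p up to 0.144.

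Within the Hsp70 and Hsp110 family, 1 of 6 tested genes passed above 0 (16.7%, against 7.69% of all genes) and 0 below (against 4.81%). Shares of such short lists, here and below, rest on few genes. This was Hspa4l, an Hsp110 relative of Hsph1, with log2 ratios of 0.66, 0.59, 0.46 and 0.22 in mice 1 to 4 (mean 0.48 ± 0.19, SD, n = 4; limma adjusted p = 0.0298). It was lost without mouse 1, 2 or 3. Hspa4, another Hsp110 relative, had -0.73, -0.24, -0.21 and 0.01 (mean -0.29 ± 0.31, SD, n = 4; limma adjusted p = 0.177). Hspa9, the mitochondrial Hsp70, had -0.08, -0.21, -0.04 and 0.18 (mean -0.04 ± 0.16, SD, n = 4; limma adjusted p = 0.798). The means of the 6 ran from -0.29 to 0.48; Hspa1a, Hsph1 and Hspa8 had been picked from the same family for their high ratios, so nothing is read from the difference.

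Of 7 genes of the Hsp90 machinery, 1 passed above 0 (14.3%, against 7.69% of all genes) and 0 below (against 4.81%). Stip1, the adaptor Hop that holds Hsp70 and Hsp90 together, had log2 ratios of 0.99, 1.25, 1.78 and 1.06 in mice 1 to 4, a mean of 1.27 ± 0.36 (SD, n = 4) or 2.41-fold (limma adjusted p = 0.0102). It was highest in mouse 3, the array on which Hsp90aa1 has no value, and it passed whichever mouse was left out. Hsp90ab1, the constitutive Hsp90 beta, has no probe with its symbol.

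Of 9 J-domain genes besides Dnajb6, 2 passed above 0 (22.2%, against 7.69% of all genes) and 1 below (11.1%, against 4.81%). Dnaja1, a cytosolic Hsp40 that works with Hspa8, had 0.97, 0.55 and 0.95 in mice 1 to 3 (mean 0.82 ± 0.24, SD, n = 3; limma adjusted p = 0.0226). Dnajc7, which also binds Hsp90, had 0.72, 0.39, 2.06 and 1.42 (mean 1.15 ± 0.74, SD, n = 4; limma adjusted p = 0.0495), and here mice 3 and 4 were the high ones. Dnaja3, a mitochondrial member, had -0.11, -0.47, -0.54 and -0.40 (mean -0.38 ± 0.19, SD, n = 4; limma adjusted p = 0.0490). Dnajb1, the classical inducible Hsp40, had a probe but no value on any array. Dnaja1 was lost without mouse 1 or 3, Dnajc7 without mouse 1, 3 or 4, and Dnaja3 whichever mouse was left out.

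Of 9 genes of nucleotide exchange and client handling, 2 passed above 0 (22.2%, against 7.69% of all genes) and 0 below (against 4.81%). Bag3, an exchange factor that links Hsp70 to autophagy, had 0.44, 0.33, 0.29 and 0.57 in mice 1 to 4 (mean 0.41 ± 0.13, SD, n = 4; limma adjusted p = 0.0278). St13, the Hsp70-interacting protein Hip, had 0.32, 0.35, 0.55 and 0.56 (mean 0.44 ± 0.13, SD, n = 4; limma adjusted p = 0.0241). Both were lost whichever mouse was left out. S100a6, the calcyclin to which the Cacybp protein binds, had -0.78, -1.34, -0.09 and 0.09 (mean -0.53 ± 0.66, SD, n = 4; limma adjusted p = 0.196) and so did not pass.

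Of 4 small heat shock genes, 1 passed above 0 (25%, against 7.69% of all genes) and 1 below (25%, against 4.81%). Cryab, which encodes alphaB-crystallin, had 0.87, 0.22, 1.03 and 0.41 in mice 1 to 4 (mean 0.63 ± 0.38, SD, n = 4; limma adjusted p = 0.0482). Hspb2, its neighbour in the genome, had -0.60, -0.75, -0.87 and -0.21 (mean -0.61 ± 0.28, SD, n = 4; limma adjusted p = 0.0318). Both are abundant in striated muscle, and muscle markers lay below 0 here. Of 20 such markers, 12 were tested, all 12 with a mean below 0, and 3 passed below 0 (25%, against 4.81% of all genes). The median log2 ratio of the 12 was -2.78, -1.12, -1.81 and -0.91 in mice 1 to 4. The 3 that passed were Tnnc2, Myl1 and Nppb. Acta1, the skeletal actin gene, ran from -2.87 to -0.16 and did not pass (limma adjusted p = 0.0768). Nor did the creatine kinase gene Ckm, which ran from -3.02 to -0.23 (limma adjusted p = 0.125). Of 12 fat markers, 6 were tested and 3 passed below 0 (50%, against 4.81% of all genes). This count was 0 when mouse 1, 3 or 4 was left out and with the random block. Of 10 lung markers, 9 were tested, with a median of 0.32. Above 0, 1 passed (11.1%, against 7.69% of all genes), and below 0, 1 passed (11.1%, against 4.81%). The part of muscle and fat in the ratios of Cryab and Hspb2 was not tested. Cryab was lost without mouse 1, 3 or 4 and Hspb2 without mouse 1, 2 or 3. Hspb1 has no probe with its symbol.

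Of 8 genes of chaperonins and of Hsp47, 3 passed above 0 (37.5%, against 7.69% of all genes) and 0 below (against 4.81%). Serpinh1, the collagen chaperone Hsp47 of the endoplasmic reticulum, had 0.68, 1.14, 1.08 and 0.97 in mice 1 to 4, a mean of 0.97 ± 0.20 (SD, n = 4) or 1.95-fold (limma adjusted p = 0.00747), and passed whichever mouse was left out. Cct7 and Cct2, subunits of the cytosolic TRiC chaperonin that folds actin and tubulin, had means of 1.00 ± 0.35 (SD, n = 4; limma adjusted p = 0.0152) and 0.89 ± 0.17 (SD, n = 3; limma adjusted p = 0.0135). Cct7 had 0.80 and 0.61 in mice 1 and 2 and 1.30 and 1.28 in mice 3 and 4, the reverse of the split of Hsph1. Cct7 was lost without mouse 4, and Cct2 without mouse 1 or 4.

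**Figure D4:**
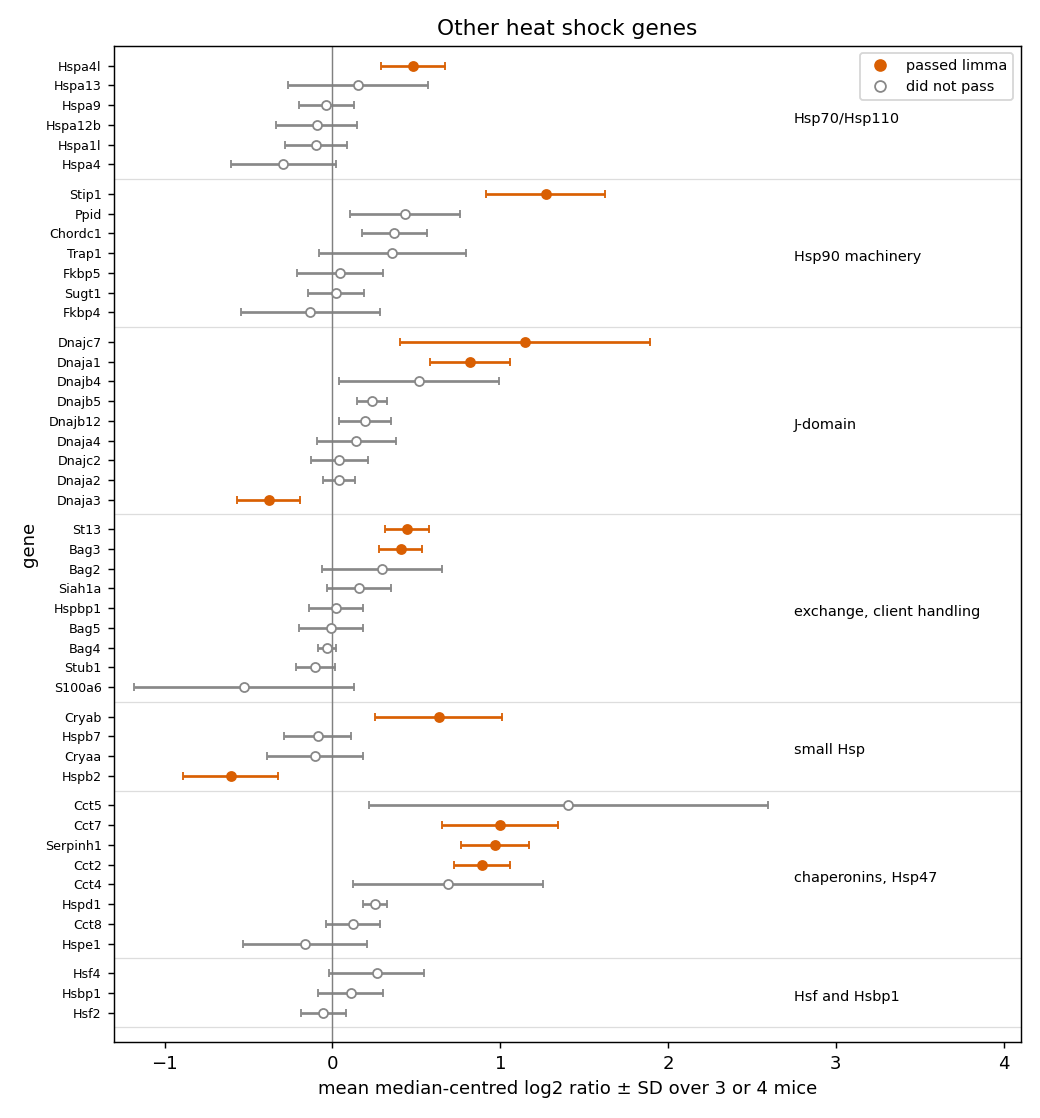
Mean median-centred log2 ratio with SD over the 3 or 4 mice with a value for 46 further chaperone genes, grouped by role; filled orange circles passed limma at an adjusted p of at most 0.05 and open grey circles did not. Stip1 has the highest mean among those that passed (1.27), and the 2 genes that passed below 0 are Hspb2 and Dnaja3.

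The mitochondrial pair Hspd1 and Hspe1, which encode Hsp60 and Hsp10 and lie head to head, is described here by ratio and by sequence. Hspd1 had log2 ratios of 0.18, 0.35, 0.26 and 0.22 in mice 1 to 4 (mean 0.25 ± 0.07, SD, n = 4; limma adjusted p = 0.0573) and Hspe1 had -0.12, 0.23, -0.67 and -0.11 (mean -0.17 ± 0.37, SD, n = 4; limma adjusted p = 0.475). Neither passed. The Hspe1 window and an Hspd1 window overlap and share a run of 18 bases with 2 overlapping 3-unit matches, at chr1:55088059-55088076. Another Hspd1 window with another start, chr1:55088194-55088493, held neither a 3-unit nor a 2-unit match. The run is shown in the Hspd1 window that holds it because it is longer than the match in any of the 4 windows above.
Hspd1, chr1:55087883-55088182, minus strand: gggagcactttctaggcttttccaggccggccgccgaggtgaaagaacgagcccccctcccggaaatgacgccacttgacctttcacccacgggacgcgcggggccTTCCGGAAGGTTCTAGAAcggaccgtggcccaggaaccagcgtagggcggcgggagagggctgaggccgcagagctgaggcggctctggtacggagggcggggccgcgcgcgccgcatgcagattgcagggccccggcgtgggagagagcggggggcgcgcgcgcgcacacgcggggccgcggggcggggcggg
Chordc1, an Hsp90 cochaperone gene named after its values were seen, had 3 overlapping matches in a run of 23 bases at its start.
Chordc1, chr9:18292263-18292285, plus strand: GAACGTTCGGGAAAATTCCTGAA
Its log2 ratios were 0.54, 0.41 and 0.16 in mice 1, 2 and 4 (mean 0.37 ± 0.19, SD, n = 3; limma adjusted p = 0.0879). Of 36 tested genes of the 7 lists with a window, 3 held a 3-unit match (8.33%, against 0.600% of all tested genes with a window). These were Hspd1, Hspe1 and Chordc1, and none of these 3 passed. Of the 8 that passed above 0 and had a window, 0 held a 3-unit match and 3 a 2-unit match (Bag3, Cct2 and Dnaja1). That 2-unit share of 37.5% was near the 32.1% (9 of 28) among the genes of these lists that did not pass above 0. Among all tested genes with a window it was 14.5%.

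Over all tested genes with a window, 40 of 6671 held a 3-unit match, among them Hsph1 and Dnajb6. Of the other 38, 3 passed limma above 0 (7.89%) and 0 below, against 7.76% above 0 of the 6671, a share near the background. The 3 were Galnt11 at 0.59, the nucleoside transporter gene Slc29a1 at 0.53 and the transcription factor gene Deaf1 at 0.32, named after their values were seen. The median log2 ratio of the 38 was -0.01, and that of the 6671 was 0.00.

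Of 3 tested genes of regulators of the response, 0 passed limma in either direction, with 0 at an unadjusted p under 0.05. Hsf2, a heat shock factor, had -0.09, 0.05, -0.23 and 0.05 in mice 1 to 4 (mean -0.06 ± 0.13, SD, n = 4; limma adjusted p = 0.656). Hsf4, another heat shock factor, had 0.51, 0.50, 0.10 and -0.05 (mean 0.26 ± 0.28, SD, n = 4; limma adjusted p = 0.186), and Hsbp1, whose protein binds Hsf1, had 0.38, 0.02, -0.08 and 0.11 (mean 0.11 ± 0.19, SD, n = 4; limma adjusted p = 0.459); both were named after their values were seen. Hsf1 has no probe with its symbol, and Hsf1 is controlled mainly through its protein.

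Beside the cytosolic genes, genes of stress in the endoplasmic reticulum were compared. Of 23 tested, 5 passed above 0 (21.7%, against 7.69% of all genes) and 1 below (4.35%, against 4.81%), with a median log2 ratio of 0.28, against 0.00 over all genes. Herpud1, which acts in the removal of misfolded proteins from this compartment, had 1.33, 1.40, 1.22 and 0.86 in mice 1 to 4, a mean of 1.20 ± 0.24 (SD, n = 4; limma adjusted p = 0.00653). The transcription factor gene Xbp1 had a mean of 0.94 ± 0.39 (SD, n = 4; limma adjusted p = 0.0220), and Chac1, a target of the same response, had -0.70 ± 0.25 (SD, n = 4; limma adjusted p = 0.0188). Creld2 passed above 0 with a mean of 0.48 ± 0.24 (SD, n = 4; limma adjusted p = 0.0424).

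The homologues of the cytosolic chaperones in that compartment had smaller ratios than Hspa1a and Hsp90aa1. Hspa5, its Hsp70 (BiP), had log2 ratios of 0.26, 0.38, 0.89 and 0.37 in mice 1 to 4 (mean 0.48 ± 0.28, SD, n = 4; limma adjusted p = 0.0524). It passed with scaled arrays (limma adjusted p = 0.0336) and with 4 values required (limma adjusted p = 0.0466). Hsp90b1, its Hsp90 (Grp94), had 0.24, 0.61, 1.10 and 0.53 (mean 0.62 ± 0.36, SD, n = 4; limma adjusted p = 0.0450). On each array Hspa5 lay below Hspa1a and Hsp90b1 below Hsp90aa1 where Hsp90aa1 had a value. Hspa1a and Hsp90aa1 had been picked for their high ratios, so nothing is read from these differences. The count above 0 was 8 with scaled arrays or with 4 values required, 2 with the random block, and with 3 mice it was 2 when mouse 1 was left out, 3 when mouse 2 was and 1 when mouse 3 or 4 was. Herpud1 passed whichever mouse was left out; Hsp90b1 and Creld2 were lost in each such fit and with the block, Xbp1 without mouse 1, 3 or 4 and Chac1 without mouse 1, 2 or 3. The highest limma adjusted p among these losses was 0.125.

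Immediate early genes, which many stresses and the handling of tissue switch on within minutes, were the other comparison. Of 19 tested, 3 passed above 0 (15.8%, against 7.69% of all genes) and 1 below (5.26%, against 4.81%). The median log2 ratio was 0.19, against 0.00 over all genes. At an unadjusted limma p under 0.05, 8 were above and 4 below 0. Those below included Junb (mean -0.61), Jund (-0.49) and Socs3 (-0.68), which did not pass after adjustment and were named after their values were seen. Klf4 had 1.61, 1.08, 1.13 and 0.75 in mice 1 to 4 (mean 1.14 ± 0.36, SD, n = 4; limma adjusted p = 0.0121) and the phosphatase gene Dusp1 had 1.62, 1.00, 1.25 and 0.73 (mean 1.15 ± 0.38, SD, n = 4; limma adjusted p = 0.0129). Both were highest in mouse 1, as Hspa1a was. Btg2 had 0.57, 0.24, 0.59 and 0.71 (mean 0.52 ± 0.20, SD, n = 4, limma adjusted p = 0.0258) and was highest in mouse 4. Gadd45g passed below 0 at -1.24 ± 0.66 (SD, n = 4, limma adjusted p = 0.0328). Egr1 stayed near 0 (0.02 ± 0.20, SD, n = 4; limma adjusted p = 0.907), and Fos and Jun had probes but no value on any array. The sources used here do not give how quickly lungs were taken, and the part of handling in these ratios and in those of the heat shock genes was not tested. Klf4 and Dusp1 passed whichever mouse was left out, Gadd45g was lost in each such fit and Btg2 when mouse 1, 3 or 4 was out or with the block, at limma adjusted p up to 0.0845. The count above 0 was 5 without mouse 2 and 2 without mouse 1, 3 or 4 or with the random block.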

How the data were processed

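The series holds 2-colour arrays of lung from 4 bleomycin-treated A/J mice against 1 pool of control lungs. The authors deposited 1 log2 ratio per spot and array (base inferred from the values). The sources used here do not name the scanner, the dyes or how background was corrected and arrays were normalized, and signal over background was not part of the table. Each array was centred on its median. Before centring, the medians were -0.009, 0.015, 0.029 and 0.019. Spots were named through an annotation table of the platform that may be out of date: 14722 of 17280 had 1 gene symbol, 1 had several and 2557 were not listed. Of the gene IDs, 14445 matched a RefSeq table of GRCm38.p6, which changed 0 symbols. Probes of 1 symbol were averaged on each array, and a gene needed at least 3 values. Mean log2 ratios were tested against 0 with limma 3.58.1 in R 4.3.3 (lmFit with an intercept, eBayes, two-sided, Benjamini-Hochberg over 8384 genes), where 645 genes passed above and 403 below 0. The pool counts as 1 control sample, so p-values leave out the spread between control mice. The fit was tested on simulated data.

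The 6 genes and all gene lists were chosen with earlier results of these data known. Named genes were the 6, every gene of the heat shock lists that passed, 14 of their genes whatever the value, fixed genes and up to 4 that passed with the smallest p of the 2 other stress lists, and the 3 nearest genes to each of the 6. Promoter windows came from RefSeq. Protein identity between the 6 genes was not analysed here. Alternatives were no centring, scaled arrays, the median of probes, complete probes, 4 values required, natural logarithms, a random block of like arrays and each mouse left out.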

Additional observations from a re-analysis of the deposited data

Results flagged for a closer look

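Among 46 genes named here with 4 values, the immediate early gene Egr1 had 1 mouse far from the others. It lay at 0.31 in mouse 1 and at -0.11, -0.08 and -0.05 in mice 2, 3 and 4, and the gap to the nearest other mouse was 0.846 of the whole range, above Dixon's critical value for 4 samples. Chance flags about 1 in 20 such groups. None of the 4 heat shock genes with 4 values, Hspa1a, Hsph1, Hspa8 and Dnajb6, was marked in this way, and Hsp90aa1 and Cacybp, with 3 values, were not checked.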

How the results depend on the processing

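The means of the 6 genes stayed above 0 in every setting run. Read as natural logarithms, they became 3.77 (Hspa1a), 2.35 (Hsph1), 2.19 (Hsp90aa1), 1.35 (Hspa8), 2.10 (Cacybp) and 1.51 (Dnajb6). Leaving out 1 mouse gave 2.30 to 2.77 for Hspa1a, 1.33 to 1.87 for Hsph1, 1.45 to 1.61 for Hsp90aa1, 0.89 to 1.00 for Hspa8, 1.35 to 1.55 for Cacybp and 1.00 to 1.09 for Dnajb6. With complete probes Hspa1a was 2.86, and Hsp90aa1 and Cacybp have none. With scaled arrays the SD between mice was 0.44 for Hsp90aa1, 0.14 for Cacybp and 0.16 for Dnajb6. The order of mice within a gene is given for unscaled arrays and was not examined with scaling. Over all genes, 198 to 411 passed above and 86 to 162 below 0 without 1 mouse, and 286 above and 116 below with the random block. Of the other heat shock genes, 4 to 7 passed above and 0 to 1 below 0 without 1 mouse, and 6 above and 0 below with the block. Genes near 0 changed side: without 1 mouse, Hspa9 ran from -0.11 to 0.021 (mouse 2 out), Hspe1 from -0.30 to 0.00067 and Hsf2 from -0.091 to 0.003 (both mouse 3 out), and Egr1 from -0.078 (mouse 1 out) to 0.063. Counting 2 adjacent units in place of 3 gave 1 match in Hspa1a, 3 in Hsph1 and 2 in Dnajb6, and 0 in Cacybp either way. No paired analysis was possible because the arrays form 1 group. Dim spots could not be judged without signal values.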
